A study of Rattus norvegicus with 9 samples.

Results

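The 3 arrays whose titles end in replicate 1 were set against the 6 that end in 2 or 3, out of 9 arrays of rat retinal ganglion cells. The split was chosen by expression values: earlier results of these data had shown replicate 1 apart, in genes such as Tagln, Sparc, Myl9, Fn1 and Vim. All differences between replicate 1 and the others are therefore given as a description, with no test. All cells came from Sprague Dawley rats at postnatal day 4 and were isolated by immunopanning, in which antibodies on a dish retain the wanted cells. Electroporation introduced mCherry, the control, wild-type Set-β (wt-SetB) or myr-Set-β (myr-SetB), in every group together with pMAX-GFP. GFP-positive cells were sorted the next day by fluorescence and light scatter, with no neuronal marker named in the gate, and RNA was extracted at 3 days after transfection. Each group had 1 array of each number, which the titles call a biological replicate. The labels do not say whether a number stands for a litter, a culture day or a hybridisation, so p-values reflect spread among these arrays that may be technical.

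Retinal ganglion cells are the projection neurons of the retina and express neurofilaments, stathmins and POU4F transcription factors. Vessels of the postnatal retina carry mural cells, the pericytes and smooth muscle cells that wrap the endothelium. These cells, and fibroblasts, contain actin and myosin filaments bundled by tropomyosins and calponin-family proteins, and secrete matrix proteins such as collagens, fibronectin and SPARC. Contractile genes are classically driven by serum response factor (SRF) with its actin-sensing coactivators. Many matrix and adhesion genes are driven by YAP and TAZ with TEAD proteins, and by TGF-β.

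The 5 marker genes were low on all 3 replicate 1 arrays and among the more abundant transcripts on the other 6. Levels are log2 of the deposited intensity, given for replicates 1, 2 and 3 in turn. Tagln, the smooth muscle actin-binding protein transgelin, had 7.93, 12.40 and 12.62 in mCherry, 7.34, 11.89 and 11.89 in wt-SetB and 6.70, 12.01 and 12.59 in myr-SetB. The difference of replicate 1 from the mean of the other two, with group in the model, was -4.91 ± 0.24 (SE), or 30.1-fold. Sparc, a matrix glycoprotein that binds collagen, had 7.17, 12.12 and 12.68 in mCherry, 7.12, 11.67 and 11.89 in wt-SetB and 7.01, 11.80 and 12.54 in myr-SetB. In both genes every replicate 1 array lay below every other array, by more than 3 log2 units. Sparc differed by -5.02 ± 0.23, or 32.3-fold, the largest of the 10518 genes tested.

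Myl9, a regulatory light chain of non-muscle and smooth muscle myosin, had 7.51, 11.51 and 11.80 in mCherry, 6.97, 10.98 and 11.27 in wt-SetB and 6.41, 11.17 and 11.66 in myr-SetB, a difference of -4.44 ± 0.22 (21.6-fold). Fn1, fibronectin, had 7.41, 10.90 and 11.47 in mCherry, 6.80, 10.15 and 10.79 in wt-SetB and 7.12, 10.70 and 11.30 in myr-SetB, a difference of -3.77 ± 0.22 (13.7-fold). Vim, the intermediate filament of mesenchymal and glial cells, had 8.60, 11.59 and 12.13 in mCherry, 7.84, 11.15 and 11.79 in wt-SetB and 8.39, 11.42 and 12.04 in myr-SetB, a difference of -3.41 ± 0.23 (10.6-fold). Again no replicate 1 array reached any of the other 6. Summed on the linear scale, the 5 genes had an intensity of 767 to 1127 on the replicate 1 arrays and 12478 to 23727 on the others. In these bulk samples fewer cells of a type and less RNA per cell cannot be told apart.

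The neuronal gene Stmn2, which encodes a microtubule regulator of growing neurites, did not follow this split. It had 12.19, 11.33 and 11.74 in mCherry, 11.62, 11.21 and 10.57 in wt-SetB and 10.92, 11.32 and 11.77 in myr-SetB. Replicate 1 was the highest array in mCherry and wt-SetB and the lowest in myr-SetB, and the overall difference was 0.26. It was 0.055 without mCherry replicate 1, 0.015 without wt-SetB replicate 1 and 0.69 without myr-SetB replicate 1.

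**Figure D1:**
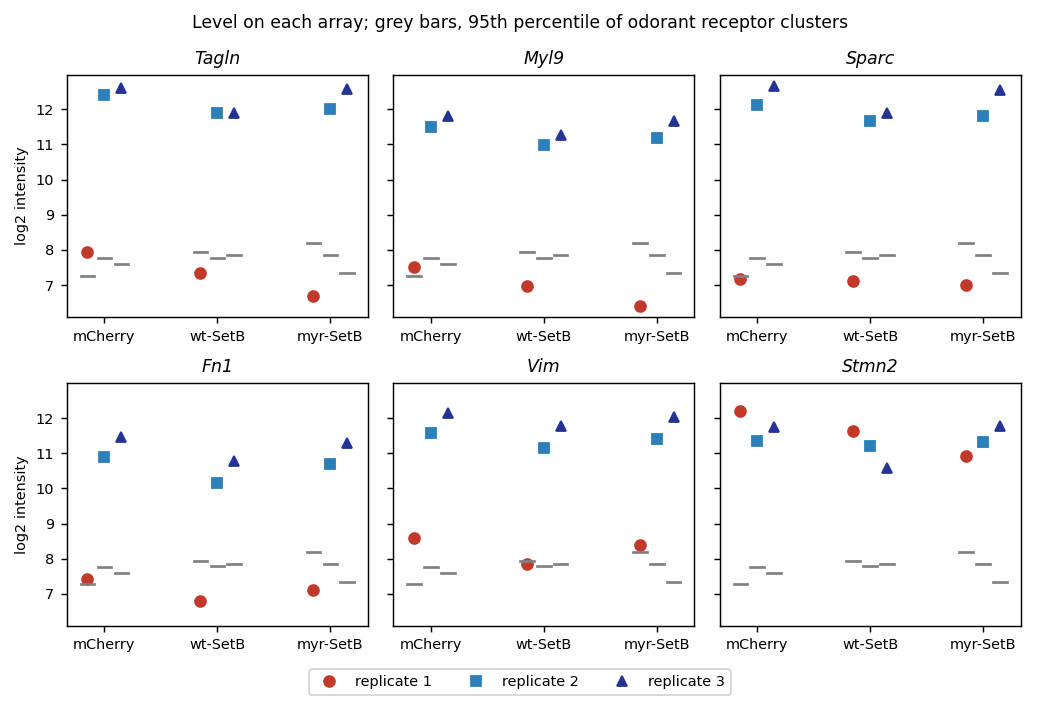
Log2 intensity (vertical axis) of Tagln, Myl9, Sparc, Fn1, Vim and the neuronal gene Stmn2 on each of the 9 arrays, by group (horizontal axis) and replicate (colour and shape); a grey bar gives the 95th percentile of odorant receptor clusters on the same array. Replicate 1 lies between 6.41 and 8.60 for the 5 marker genes and the other arrays between 10.15 and 12.68, while Stmn2 overlaps.

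Odorant receptor genes served as a mark of background, since these cells are not olfactory neurons. The 95th percentile of their 1198 clusters was 7.27 to 8.19 over the 9 arrays. On replicate 1, Tagln and Myl9 exceeded this mark in mCherry (where it was 7.27) and in no other group, Fn1 likewise, and Sparc on no array. Vim exceeded it in mCherry and in myr-SetB. The fold differences of genes at that mark rest on a background level.

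The arrays were not alike in signal range. Between the 10th and the 90th percentile, log2 intensity spanned 3.82 on myr-SetB replicate 1, the narrowest, and 4.12 to 4.54 on the other 8. List medians that moved by more than 1.5 times without this array, or changed sign, are given with and without it. For lists described below mainly by counts, the endothelial median went from -0.13 to 0.043 and the Müller glia median from -0.045 to -0.18. The oligodendrocyte and Schwann cell median went from -0.044 to -0.15 and the interferon median from -0.28 to -0.53. The immediate early median went from -0.0010 to 0.12 and the cell cycle median from -0.016 to -0.062. The median of all genes differed by 0.12 in mCherry, 0.01 in wt-SetB and -0.36 in myr-SetB, and after quantile normalization and cyclic loess the last value was -0.18 and -0.13. Over the 3 groups it was -0.05, or 0.067 without myr-SetB replicate 1.

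Of 10518 genes measured by a cluster with 1 symbol and above the level filter, 287 were lower in replicate 1, which was 2.73% of them. A gene was counted when replicate 1 lay below both other replicates in each of the 3 groups and the difference was at least 1 log2 unit. In the opposite direction the same rule found 2 genes, or 0.019%. At any size the counts were 975 lower (9.27%) and 254 higher (2.41%), and all 3 replicate 1 arrays lay outside the range of the other 6 for 542 lower (5.15%) and 83 higher genes (0.789%). Without the condition on each group, 311 genes (2.96%) were lower by at least 1 log2 unit and 3 (0.0285%) were higher. Differences of at least 2 log2 units were seen in 84 lower genes, of at least 3 in 30 and of at least 4 in 5. Just inside the threshold lay Rgs7bp (-1.01), then Lypla1 and Cxcl16, and just outside Dennd2b (-0.998), Anxa4 (-0.995) and Bmpr1a (-0.994). Without mCherry replicate 1 the lower count was 476, and the higher count was 6. Without wt-SetB replicate 1 the higher count was 5, and without myr-SetB replicate 1 it was 27. The difference of Lypla1 was -0.37 without myr-SetB replicate 1. When a replicate 1 array is left out, only the other 2 groups have to show the direction. The level filter used the mean over all 9 arrays, 6 of which are replicates 2 and 3. Genes low only in replicate 1 thus passed it more easily than genes high only there, also among the tested members of lists. With all 9 arrays and no level filter, 299 genes were lower and 8 higher.

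**Figure D2:**
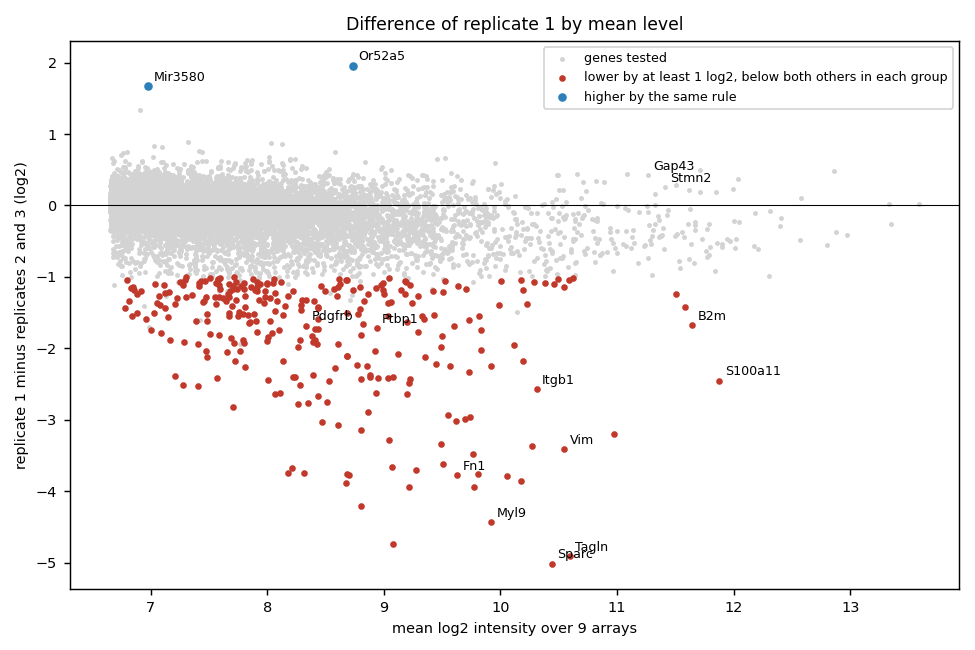
Difference of replicate 1 from replicates 2 and 3 (log2, vertical axis) against the mean log2 intensity over 9 arrays (horizontal axis) for 10518 genes; red points are the 287 genes lower by the count rule and blue points the 2 higher. The lower genes reach -5.02 (Sparc) and occur at all levels, and no higher gene exceeds 1.96 (Or52a5).

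The next shares describe the 287 genes and follow from how they were chosen. In the 287 lower genes a median of 83.1% of the within-group sum of squares lay along the contrast of replicate 1 with the others, against 12.2% over all genes. An equal spread in every direction would give 16.7% as a mean over genes, which is not the same measure as these medians. The median level of the 287 genes was 7.10 in replicate 1 and 8.95 in replicates 2 and 3. Of these genes 137 were at or below the odorant receptor mark on every replicate 1 array, 197 were above it on all 6 others, and 62 met both conditions. Their median difference was -1.60 in mCherry, -1.29 in wt-SetB and -1.99 in myr-SetB. Replicates 2 and 3 themselves differed in these genes by a median absolute value of 0.61, 0.32 and 0.67 in the 3 groups.

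Genes of the contractile apparatus were among those with the largest differences. Ppp1r14a, an inhibitor of myosin phosphatase found in smooth muscle, had 5.90, 10.57 and 11.21 in mCherry, 5.99, 10.16 and 10.47 in wt-SetB and 5.86, 10.33 and 11.19 in myr-SetB. Its replicate 1 arrays lay close together, far below the others, and its difference was -4.74 ± 0.26. Cald1, caldesmon, which binds actin and tropomyosin, differed by -3.94 ± 0.19, the tropomyosin Tpm2 by -3.86 ± 0.26, the myosin light chain Myl12a by -3.76 ± 0.24 and Actg2, the enteric smooth muscle actin, by -3.61 ± 0.32. Without myr-SetB replicate 1 the difference of Tpm2 was -3.43.

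Of 28 tested genes of a list of SRF and actin cytoskeleton genes, 19 were lower by the count rule and the median difference was -1.73, against -0.05 over all genes. They included the LIM protein Csrp1 (-3.37), Pdlim1 (-3.28), the actin crosslinkers Actn1 (-3.02) and Flna (-2.96), the focal adhesion proteins Vcl (-1.78) and Zyx (-1.20), and the non-muscle myosin Myh9 (-1.78). Beta-actin, Actb, missed the rule at -0.98, or -0.59 without myr-SetB replicate 1, and Srf itself had -0.53. Among 17 tested mural and smooth muscle markers 10 were lower, with a median of -1.11. The pericyte receptor Pdgfrb had -1.68, Mcam -1.61, the proteoglycan Cspg4 -1.11 and the smooth muscle myosin Myh11 -1.07. Other mural genes differed little: Rgs5 had -0.51, Abcc9 -0.40, Des -0.29 and the receptor Notch3 0.11. Without mCherry replicate 1 Rgs5 and Abcc9 had -0.27 each and Des -0.12, and without myr-SetB replicate 1 Notch3 had -0.11. The summed intensity of the 22 mural genes on the array was 2831 to 3113 on replicate 1 and 14375 to 24812 on the others. Tagln and Myl9, which were named with the split, belong to this list and its sum, and Tagln also to the SRF list. None of the 22 measured mural markers was above the odorant receptor mark on every replicate 1 array, and 9 were on all 6 others.

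Matrix genes were lower alongside. Bgn, the proteoglycan biglycan, had 6.53, 10.13 and 10.79 in mCherry, 5.49, 9.71 and 10.17 in wt-SetB and 5.97, 9.78 and 10.65 in myr-SetB, a difference of -4.21 ± 0.25. The collagen and elastin crosslinking enzyme Lox differed by -3.75 ± 0.21 and the short-chain collagen Col8a1 by -3.67 ± 0.24. In a list of collagens, laminins and other matrix genes 12 of 22 tested members were lower, with a median of -1.09, among them nidogen Nid1 (-2.64), Col12a1 (-2.26) and the basement membrane collagen Col4a1 (-2.18). Among fibroblast and matrix markers 13 of 20 were lower, with a median of -1.28, including Ogn (-2.64), Postn (-2.52), Col3a1 (-1.62) and Col1a2 (-1.37). Col1a1, which forms type I collagen with Col1a2, did not share the difference: it had 7.25 to 7.62 on all 9 arrays and -0.09 ± 0.14. The fibroblast markers Lum, Dcn and Pdgfra were below the level filter, with Lum between 4.64 and 5.18 and Dcn between 5.13 and 5.28. The 27 fibroblast and matrix genes on the array summed to 3519 to 4520 on replicate 1 and 10861 to 21233 on the others. Sparc and Fn1, which were named with the split, belong to this list and its sum, and Sparc also to the list of matrix genes.

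The 2 lower genes among 21 tested in the glycolysis and hypoxia list were the collagen prolyl hydroxylase subunits P4ha1 (-2.89) and P4ha2 (-2.04). The median of this list was -0.47, with -0.02 in mCherry, -0.11 in wt-SetB and -0.76 in myr-SetB, and -0.16 without myr-SetB replicate 1. The collagen chaperone Serpinh1 (-2.94) and the lysyl hydroxylase Plod2 (-2.49) were chosen after their values were seen. Of 24 unfolded protein response and heat shock genes 7 were lower, with a median of -0.60. They were led by the small heat shock proteins Cryab (-3.94 ± 0.32) and Hspb1 (-1.93), followed by the chaperones Calr (-1.59) and Dnajc3 (-1.58), and Hspa5 had -1.02. Without myr-SetB replicate 1 this count was 4, the median -0.43 and the difference of Hspa5 -0.52.

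Adhesion and signalling genes completed the group. Of 18 tested integrin and adhesion genes 9 were lower, with a median of -1.06. The collagen receptor subunit Itga1 had -2.82, the common subunit Itgb1 -2.57 and Parva, which links integrins to actin, -2.24. Itgb1 had 9.59 in mCherry, 8.80 in wt-SetB and 7.39 in myr-SetB on replicate 1 and 10.80 to 11.50 on the other arrays, so that it was far from background in mCherry. Itga3 (0.15) and the cadherin Cdh2 (0.03), which neurons also express, had small differences over the groups that depended on single arrays. Without mCherry replicate 1 they had -0.0084 and -0.36, and without myr-SetB replicate 1 they had 0.31 and 0.52. Of 19 YAP and TGF-β genes 9 were lower, with a median of -0.86. The ligand Tgfb3 had -3.89 ± 0.23, the matricellular proteins Ccn1 and Ccn2 -3.66 ± 0.33 and -3.48 ± 0.33, the binding protein Igfbp7 -3.07 and the ligand Tgfb2 -2.46. Ccn2 had 7.06, 10.99 and 11.60 in mCherry, 7.37, 10.33 and 10.54 in wt-SetB and 7.90, 10.46 and 11.64 in myr-SetB, with no overlap. The transcription factors Tead1 (-2.63), Vgll3 (-2.62) and Wwtr1 (-1.83), the last of which encodes TAZ, were also lower, as was Epas1, the hypoxia-inducible factor 2α (-3.77 ± 0.26). The TNF family ligand Tnfsf18 had -3.70 ± 0.44.

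The promoters of these genes are shown to let the letters be read beside the levels. TEAD proteins, the DNA-binding partners of YAP and TAZ, recognise the letters GGAATG, which were searched on both strands of the 250 bases before each RefSeq gene start (GRCr8) and are in capitals below. Printed are Ccn1, Ccn2 and Sparc, read on the strand of the gene, at chr2:237225690-237225939, chr1:22624615-22624864 and chr10:40038817-40039066, all on the minus strand.
Ccn1: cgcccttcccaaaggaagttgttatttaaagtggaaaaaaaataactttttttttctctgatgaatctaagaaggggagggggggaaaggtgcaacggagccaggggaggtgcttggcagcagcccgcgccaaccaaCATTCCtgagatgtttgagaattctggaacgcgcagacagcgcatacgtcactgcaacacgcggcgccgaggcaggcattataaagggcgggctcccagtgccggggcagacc
Ccn2: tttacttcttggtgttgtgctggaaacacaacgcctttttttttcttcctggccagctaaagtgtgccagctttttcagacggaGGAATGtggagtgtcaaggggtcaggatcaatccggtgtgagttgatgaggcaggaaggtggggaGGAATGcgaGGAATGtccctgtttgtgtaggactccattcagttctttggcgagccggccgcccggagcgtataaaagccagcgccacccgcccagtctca
Sparc: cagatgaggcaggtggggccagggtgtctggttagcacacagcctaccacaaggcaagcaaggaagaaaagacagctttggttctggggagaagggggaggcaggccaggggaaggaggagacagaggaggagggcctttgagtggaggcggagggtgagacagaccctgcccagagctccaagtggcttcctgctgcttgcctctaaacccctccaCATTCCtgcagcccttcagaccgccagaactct
Ccn2 held 3 matches, the first letter lying 166, 101 and 92 bases before the start, and Ccn1 and Sparc 1 each. Of the 20 lower genes of largest difference 14 had a promoter in the RefSeq table, and 5 of these held the letters (Anxa1, Cald1, Ccn1, Sparc and Tnfsf18). The share with a match was 16.4% of the 225 lower genes with a promoter, 9.82% of 8585 tested genes and 11.8% of all 27457 promoters. The CArG box, the site of SRF, was found in 3.11% (7 of 225), 1.21% and 1.5%, and in 0 of the 14 promoters of the lower genes of largest difference. These shares were not tested, and a match is no evidence of binding.

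Genes common to many non-neuronal cells were lower too. Of 19 mesenchymal cytoplasmic markers 9 were lower, with a median of -0.95, and this list holds Vim, which was named with the split. The calcium-binding protein S100a6 had -3.79 ± 0.37, the phospholipid-binding Anxa1 -3.75 ± 0.31 and the galectin Lgals1 -3.34. S100a11 was abundant everywhere, with 11.14, 12.85 and 13.11 in mCherry, 10.21, 12.49 and 11.98 in wt-SetB and 9.38, 12.71 and 13.03 in myr-SetB, and its difference of -2.45 ± 0.31 does not rest on background levels. S100a10 (-0.13) and Tmsb10 (-0.00) had small differences over the groups, but S100a10 had -0.36 without mCherry replicate 1 and 0.34 without myr-SetB replicate 1. The splicing repressor Ptbp1, which neurons replace by Ptbp2, had -1.72 ± 0.30. Ptbp2 had 0.20, or -0.13 without mCherry replicate 1 and 0.64 without myr-SetB replicate 1. Ptbp1 was the 1 lower gene among 41 splicing genes, near the share of 2.73% over all genes. Among 13 interferon and class I histocompatibility genes 3 were lower, the antiviral membrane proteins Ifitm2 (-3.76 ± 0.35) and Ifitm3 (-2.40) and the class I light chain B2m (-1.67). The other 10 lay between -0.74 (Ifit2) and 0.19 (Irf9).

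**Figure D3:**
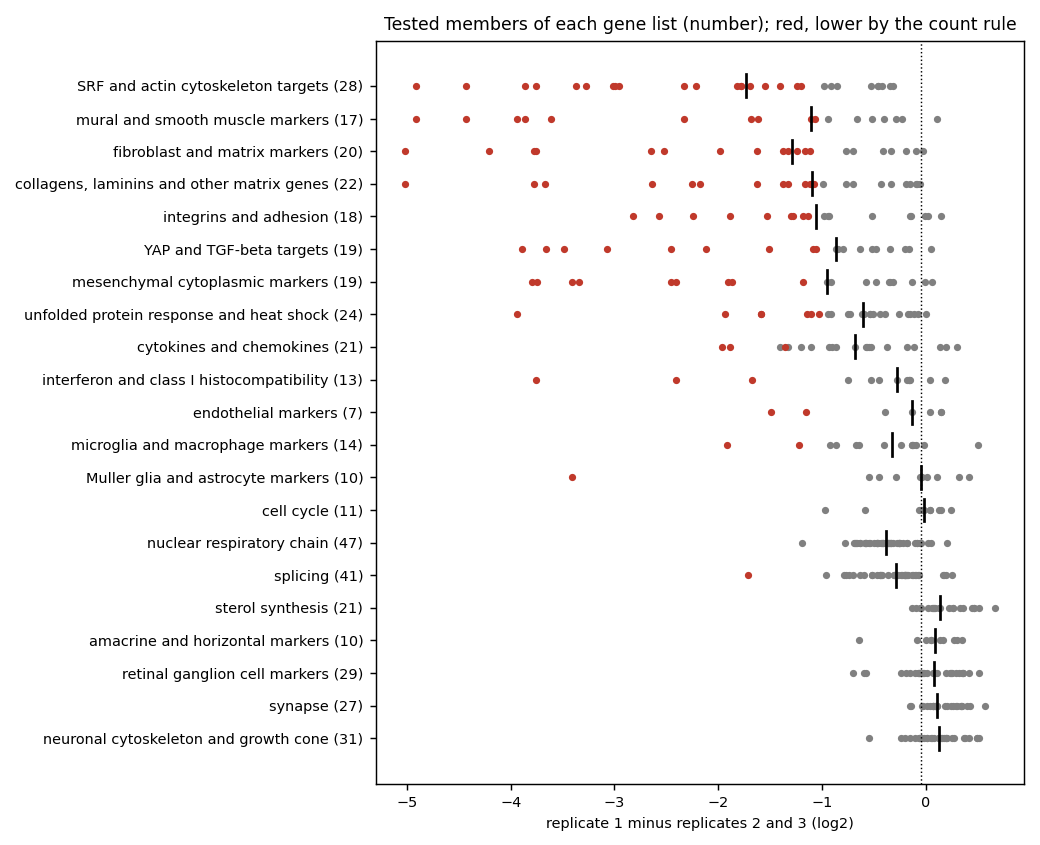
Difference of replicate 1 from replicates 2 and 3 (log2, horizontal axis) for each tested member of 21 gene lists (number of members in brackets); red points are members lower by the count rule, black bars list medians, and the dotted line the median of all genes, -0.05. Contractile, matrix and adhesion lists spread far below 0 while ganglion cell, synapse and cytoskeleton lists lie around it.

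Lists of markers of other cell classes had smaller median differences. Of 7 tested endothelial markers 2 were lower, Esam (-1.49 ± 0.20) and the VEGF receptor Flt1 (-1.15 ± 0.17), whereas VE-cadherin, Cdh5, had 6.53 to 6.99 on all arrays. Without mCherry replicate 1 the endothelial count was 1. The endothelial genes Cldn5 and Tie1 were below the level filter, and the 15 measured endothelial genes summed to 1539 to 1744 on replicate 1 and 1702 to 2135 on the others, with overlap. Of 14 microglia and macrophage markers 2 were lower, lysozyme Lyz2 (-1.91 ± 0.35) and the lysosomal protein Cd68 (-1.22 ± 0.19), and the list's median was -0.32, or -0.14 without mCherry replicate 1. Cx3cr1 (-0.14) and C1qa (-0.09) did not follow. The 20 measured microglia genes summed to 2572 to 2804 on replicate 1 and 3221 to 4289 on the others, without overlap. Among Müller glia and astrocyte markers the 1 lower gene of 10 was Vim, and among oligodendrocyte and Schwann cell markers it was the myelin protein Pmp22 (-1.27) of 7. No gene was lower among 10 amacrine and horizontal (median 0.09), 3 photoreceptor and bipolar (0.02) or 3 lens, pigment epithelium and erythrocyte markers (0.01). These medians were 0.26, 0.085 and 0.035 without myr-SetB replicate 1. The share lower over all genes was 2.73%, so counts of 0 or 1 in lists this short say little. The part of any of these cell types in the difference was not tested.

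**Figure D4:**
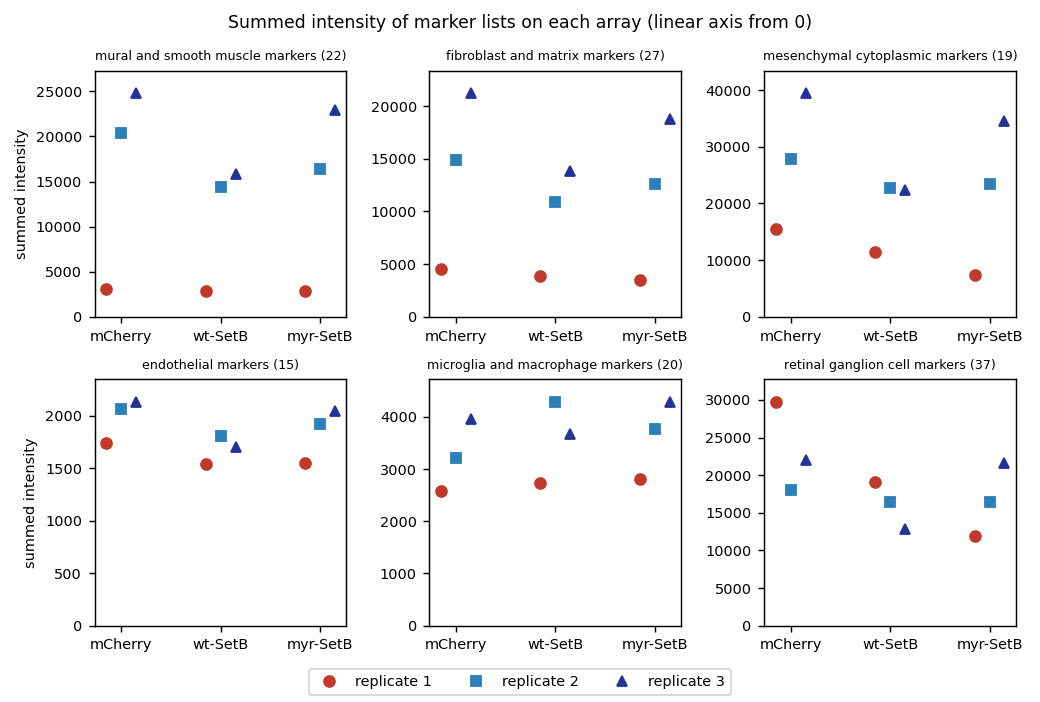
Summed linear intensity (vertical axis, from 0) of 6 marker lists on each array, by group (horizontal axis) and replicate (colour and shape), with the number of genes in brackets. Mural genes sum to 2831 to 3113 on replicate 1 and to at least 14375 elsewhere, whereas ganglion cell markers overlap. The mural list holds Tagln and Myl9, the fibroblast list Sparc and Fn1 and the mesenchymal list Vim, all named with the split.

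Inflammatory and proliferation genes showed smaller median differences. With 2.73% of all genes lower, counts of 0 or 1 in lists this short say little. Of 21 cytokine and chemokine genes 3 were lower, the monocyte attractant Ccl2 (-1.96 ± 0.65), the prostaglandin enzyme Ptgs2 (-1.88 ± 0.39) and Il6 (-1.36), with a median of -0.68, or -0.37 without myr-SetB replicate 1. This count was 7 without wt-SetB replicate 1, on which Ccl2 had 10.17, and 5 without mCherry replicate 2. None of 11 cell cycle genes was lower (median -0.02, or -0.074 to 0.071 when 1 array was left out), the nearest being Ccnd2 at -0.97, and the count was 1 without mCherry replicate 2, wt-SetB replicate 1, myr-SetB replicate 1 or myr-SetB replicate 2. Mki67, Top2a and Cdk1 were below the level filter. The immediate early list had 1 lower gene of 17 (Ier3, -1.28), or 2 without mCherry replicate 1. The retinoid and growth factor list had 1 of 15 (Igfbp7) and a median of -0.11, or -0.018 without myr-SetB replicate 1.

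Of 37 measured ganglion cell markers, 11 were above the odorant receptor mark on every replicate 1 array and 19 on all the others. None of the 29 tested markers was lower or higher by the count rule. Their median difference was 0.08, and the 37 measured markers summed to 11961 to 29749 on replicate 1 and 12804 to 22065 on the others. The transcription factor Pou4f1 had 0.30, Pou4f2 0.09, the synuclein Sncg 0.36, the neurofilament protein Ina 0.52 and the growth cone protein Gap43 0.42. The RNA-binding protein Rbpms (-0.60) and the transcription factor Ebf1 (-0.70) were at the low end, but had -0.025 and -0.30 without myr-SetB replicate 1. Without that array Pou4f1 had 0.76, Pou4f2 0.27, Gap43 0.83, Sncg 0.58 and Ina 0.82. Without mCherry replicate 1 Pou4f1 and Pou4f2 turned to -0.083 and -0.13, and without wt-SetB replicate 1 Gap43 had 0.14 and Sncg 0.17. The sizes and in part the signs of these small differences thus depended on single arrays. No gene was lower among 27 synapse genes (median 0.11), 14 voltage-gated channel genes (0.12) or 31 neuronal cytoskeleton genes (0.13), nor among 21 sterol synthesis genes (0.14). Counts of 0 in lists of these sizes were near the share over all genes. The medians of the channel and sterol lists were 0.42 and 0.49 without myr-SetB replicate 1, and -0.15 and -0.011 without mCherry replicate 1. Stx1a, a presynaptic SNARE protein, had 0.57, or 0.31 without mCherry replicate 1, and was above both other replicates in each group.

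These medians joined groups that went different ways. Neuronal cytoskeleton genes had a median difference of 0.66 in mCherry, 0.38 in wt-SetB and -0.74 in myr-SetB. For ganglion cell markers the values were 0.53, 0.22 and -0.62, and for synapse genes 0.68, 0.19 and -0.48. The value in myr-SetB depended on the scaling: with quantile normalization it was -0.33, -0.32 and -0.22 for the 3 lists in this order, and with cyclic loess 0.0011, -0.082 and -0.10. In mCherry the 3 values stayed between 0.40 and 0.59 under both. Without myr-SetB replicate 1 the medians over the remaining groups were 0.57 for neuronal cytoskeleton, 0.40 for ganglion cell markers and 0.47 for synapse genes. Without mCherry replicate 1 they were -0.18, -0.18 and -0.17, and without wt-SetB replicate 1 -0.05, -0.036 and 0.097. The narrow signal range of myr-SetB replicate 1 moved with the values in that group, and its part in them was not tested.

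**Figure D5:**
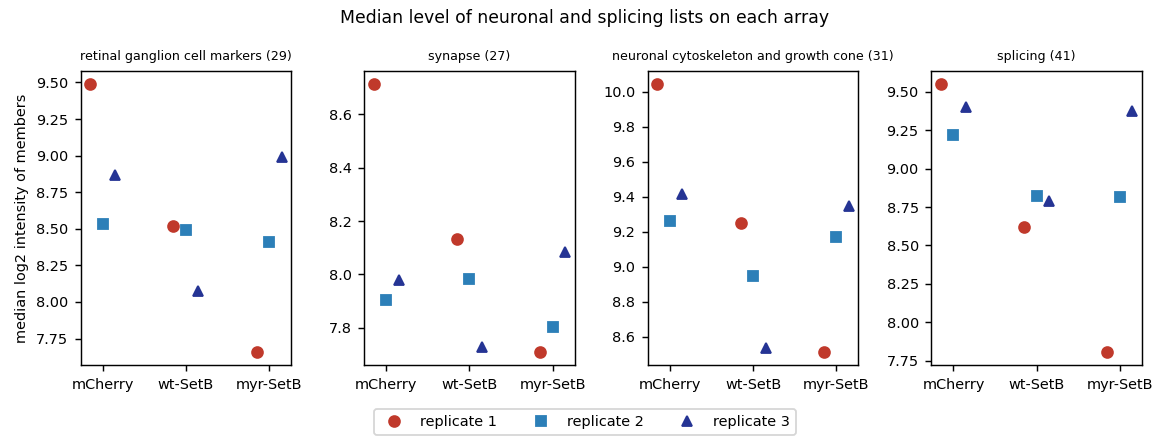
Median log2 intensity (vertical axis, not from 0) of the tested members of the ganglion cell marker, synapse, neuronal cytoskeleton and splicing lists on each array, by group (horizontal axis) and replicate (colour and shape). Replicate 1 is the highest array of mCherry in all 4 panels and the lowest of myr-SetB in all 4.

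Housekeeping lists also had their lowest values in myr-SetB. Respiratory chain genes had a median of -0.38 over the groups but 0.03 in mCherry, -0.09 in wt-SetB and -1.14 in myr-SetB, and 0 of 47 were lower, against 3 without mCherry replicate 1 and 1 without mCherry replicate 2. Splicing genes had 0.21, 0.09 and -1.26 with a median of -0.29, which was 0.13 without myr-SetB replicate 1 and -0.56 without mCherry replicate 1. Their count of 1 was 4 without mCherry replicate 1, and 2 without mCherry replicate 2 or without wt-SetB replicate 1. With quantile normalization the myr-SetB values of the respiratory chain and splicing lists were -0.67 and -0.80, and with cyclic loess -0.30 and -0.46. The proteasome and ribosomal lists were not run by group under these scalings. Proteasome subunits (0 of 36 lower, median -0.39), mitochondrial ribosomal proteins (0 of 66, -0.18) and cytosolic ribosomal proteins (6 of 121, -0.54) had -1.25, -0.77 and -1.05 in myr-SetB. In this order they had 0.13, 0.10 and -0.27 in mCherry and -0.15, -0.04 and -0.30 in wt-SetB. The cytosolic ribosomal list was drawn by a symbol pattern that 187 symbols on the array matched. Whether each of them encodes a ribosomal protein was not examined. At any size, replicate 1 lay below both others in each group for 55 of the 121 tested genes of this list and above both for 2. Over all genes these shares were 9.27% and 2.41%, and 2.73% were lower by the count rule. The medians without myr-SetB replicate 1 were -0.034 for the respiratory chain, -0.03 for proteasome subunits, 0.048 for mitochondrial and -0.30 for cytosolic ribosomal proteins. For the respiratory chain it was -0.58 without mCherry replicate 1. The injury and stress response list had 1 lower gene of 28 (Hspb1) and a median of -0.06, and p53 and apoptosis genes 0 of 18 and -0.04. Both of these medians turned above 0 with quantile normalization, with cyclic loess and without myr-SetB replicate 1 (0.17 each).

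Genes higher in replicate 1 were few and less uniform. Or52a5, an odorant receptor, had 8.62, 8.22 and 7.95 in mCherry, 10.68, 8.19 and 8.08 in wt-SetB and 10.81, 9.82 and 6.21 in myr-SetB, a difference of 1.96 ± 0.74. Mir3580, a microRNA gene, had 8.40, 6.65 and 7.46 in mCherry, 7.51, 7.19 and 4.90 in wt-SetB and 8.37, 7.61 and 4.71 in myr-SetB, a difference of 1.67 ± 0.69. In both genes replicates 2 and 3 of myr-SetB differed from each other by more than the fitted difference. The other 18 of the 20 consistently higher genes of largest difference lay between 0.56 (Or1o1) and 0.76 (Pbld2). They included Plppr1, a neuronal membrane protein of process outgrowth (0.59), the GABA receptor subunit Gabrg3 (0.58), the endocytic protein Sh3gl3 (0.63), the potassium channel partner Kcnip4 (0.67), the mitochondrial carrier Slc25a27 (0.61) and Stx1a. Also among the 18 were Slc7a12 and Mir3065 (0.74 each), C8h3orf62 (0.66), Mmp12 (0.62) and Tmem258l4 (0.61). The rest were Tgap1l5 and Aloxe3 (0.60 each), Trub2 and Mir129-1 (0.58 each) and Pdxk (0.57). Without mCherry replicate 1 Pbld2 had 0.50, Plppr1 0.39, Pdxk 0.37, Gabrg3 0.36, Stx1a 0.31 and Slc25a27 0.30, and without wt-SetB replicate 1 Or1o1 had 0.32. Tgap1l5 had 0.22 without myr-SetB replicate 1 and 0.34 without myr-SetB replicate 3. Of 255 odorant receptors tested 1 was higher and 1 lower by the count rule, and their median was 0.08, or -0.091 without myr-SetB replicate 1.

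Whether the difference of replicate 1 itself differed between the groups is a separate contrast, which did not choose the arrays. Each group has 1 replicate 1 array, so the test compares single arrays, whose spread is assumed to be that between replicates 2 and 3. With limma's F test over the 3 groups no cluster of 18343 passed an adjusted p of 0.05 (smallest 0.137), while 3291 (17.9%) had an unadjusted p under 0.05. Among the 287 lower genes 37 had an unadjusted p under 0.05. Between pairs of groups the number past the adjusted threshold was again 0, while 875 (4.77%) had an unadjusted p under 0.05 for wt-SetB against mCherry, 4834 (26.4%) for myr-SetB against mCherry and 2695 (14.7%) for myr-SetB against wt-SetB. The smallest adjusted p of limma in these pairs was 0.558, 0.0695 and 0.168. The genes of smallest p each had an adjusted p of 0.248. Fpgs, which adds glutamates to folates, had 9.57 on mCherry replicate 1 and 6.86 to 7.41 on the other 8 arrays. The junction gene Ajm1 had 9.86 there and 6.17 to 7.00 elsewhere. Trim36, a ubiquitin ligase, differed by 1.31 in mCherry, 0.20 in wt-SetB and -1.31 in myr-SetB, and the odorant receptor Or8h6 by -1.25, 0.81 and 0.94. The test rests on 3 residual degrees of freedom.

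The split also enters the error of the comparisons between groups. Each group holds 1 replicate 1 array, so a group difference does not change when the split enters the model, but its standard error does. For Tagln the difference of wt-SetB from mCherry was -0.61 ± 1.93 (SE) with group alone and -0.61 ± 0.27 with an indicator of replicate 1. This drop follows from the choice of Tagln as a gene that differs in replicate 1. Over all genes the median standard error fell from 0.247 to 0.238. Over all clusters the unadjusted share moved from 10.2% to 10.8%, from 9.79% to 10.1% and from 1.13% to 1.2%. By limma's adjusted p no cluster passed 0.05 in any of the 3 comparisons, with or without the indicator, where the unadjusted counts were 1865 and 1989, 1796 and 1855, and 208 and 221.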

How the data were processed

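Gene expression was measured on 9 Affymetrix Rat Gene 2.0 ST arrays, 3 per group. Per the submitters' processing notes the authors used Affymetrix Expression Console and RMA, and per the series' design text they then normalized each sample to its median. RMA comprises background correction, quantile normalization and probe summarisation. The deposited arrays still differed in log2 range from the 10th to the 90th percentile (3.82 to 4.54). Whether they were normalized together was not examined. The deposited values are intensity on a linear scale with a median of 100 on each array, for 36685 transcript clusters. For the arrays, a genome build was not given in the sources used here. The number of arrays limits the precision.

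Platform annotation gave 18511 clusters 1 symbol, 575 several and 17599 none; 18394 matched the RefSeq table by gene ID. The deposited intensities were log2-transformed. Clusters with a mean below the median of all means (6.65) were left out, which left 18343, and each gene was represented by its single-symbol cluster of highest mean. limma 3.58.1 in R 4.3.3 fitted group and an indicator of replicate 1 (5 residual and 3.04 prior degrees of freedom), 6 cell means for the difference between groups, and group alone for group comparisons, two-sided, with Benjamini-Hochberg adjustment. The fit was tested on simulated data. The split, the 35 gene lists and name patterns, and all choices were made with earlier results of these data known. Named were the 20 genes of largest difference per direction among those beyond both other replicates in each group, the 5 markers, up to 4 members per list and the 4 genes of smallest p for the difference between groups; all others were chosen after their values were seen. Alternatives were quantile and cyclic loess normalization, other level filters and size thresholds, the mean over clusters, a replicate block and leaving out each array.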

Additional observations from a re-analysis of the deposited data

Results flagged for a closer look

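In 13 of 35 gene lists the members' median level on replicate 1 lay above replicates 2 and 3 in one group and below both in another. The lists numbered 12 for myr-SetB against mCherry, 9 for myr-SetB against wt-SetB and 2 for wt-SetB against mCherry. Each value below is the list's median log2 difference of replicate 1 in the first group minus that in the second. None of these differences between groups was tested over the list, and each group holds 1 replicate 1 array. For myr-SetB against mCherry it was -1.16 for ganglion cell markers, -1.17 for synapse genes, -0.96 for voltage-gated channels and -1.40 for neuronal cytoskeleton genes. It was -0.95 for injury and stress response genes, -1.02 for sterol synthesis, -1.47 for splicing, -0.70 for p53 targets and apoptosis and 0.79 for odorant receptors. Smaller values were seen for photoreceptor and bipolar markers (-0.34), amacrine and horizontal markers (-0.36) and cell cycle genes (-0.14). For myr-SetB against wt-SetB it was -0.84 for ganglion cell markers, -0.67 for synapse genes, -0.52 for voltage-gated channels, -1.12 for neuronal cytoskeleton genes, -0.64 for sterol synthesis and -0.74 for mitochondrial ribosomal proteins. It was -0.21 for photoreceptor and bipolar markers, -0.37 for amacrine and horizontal markers and 0.039 for cell cycle genes. For wt-SetB against mCherry it was -0.12 for splicing genes and 0.43 for odorant receptors. For cell cycle genes against mCherry the values disagree in direction: the array medians put replicate 1 below both others in mCherry (7.06 against 7.17 and 7.17) and above both in myr-SetB (7.08 against 6.96 and 7.04), whereas the median difference of the members was 0.12 in mCherry and -0.02 in myr-SetB. In wt-SetB the array medians and the median differences also disagreed in sign for splicing genes (0.09) and mitochondrial ribosomal proteins (-0.038). With cyclic loess the median difference in myr-SetB changed sign for neuronal cytoskeleton (0.0011) and sterol synthesis genes (0.11), and with quantile normalization for amacrine and horizontal markers (0.027) and cell cycle genes (0.016). For splicing genes the value in myr-SetB was -1.26 as deposited, -0.80 with quantile normalization and -0.46 with cyclic loess. Odorant receptors and mitochondrial ribosomal proteins were not run by group under these scalings.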

How the results depend on the processing

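The count of 287 lower genes was 277 with quantile normalization, 254 with cyclic loess, 299 when no level filter was set, 232 when it stood at the 75th percentile of cluster means and 287 with the mean over a gene's clusters. Of the 287 genes 267 were shared with quantile normalization and 248 with cyclic loess, tested on the same clusters. Requiring 0.5 log2 units gave 687 lower and 28 higher genes, and requiring 2 gave 84 and 0. The count of 2 higher genes was 8 without a level filter and 1 at that stricter one. Leaving out 1 array gave 241 to 476 lower and 2 to 27 higher genes. Of 130 named genes, 77 passed the count rule, and 0 of these changed sign with another scaling or without 1 array. Of the other named genes, 15 changed sign under at least 1 of these settings, among them Thy1, which had -0.021 as deposited, 0.11 with quantile normalization and 0.21 with cyclic loess. In all, 14 of 1170 leave-one-out values moved by more than the spread between replicates. The tests between groups called 0 clusters under all alternatives run. With the replicate number as a block the counts were 287 lower and 2 higher, and the 3 group comparisons again called 0 clusters. Deviations from the group means were correlated between arrays of different groups. Over the 3 pairs of groups, r was 0.38, -0.07 and 0.26 for replicate 1, 0.02, 0.02 and 0.04 for replicate 2, and 0.27, 0.24 and 0.13 for replicate 3. Between arrays of different number r ran from -0.40 to 0.36, which overlapped these values. Whether the numbers pair the arrays was not tested. Signal near background limits the sizes given for genes low on replicate 1.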

Other observations

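Of the 287 lower genes 6 had a further single-symbol cluster on the array. Of these, 4 were above the level filter, and 3 were lower by at least 1 log2 unit: Dnajb4 (-1.63 beside -1.54 in the cluster used), Ifitm3 (-2.17 beside -2.40) and Il13ra1 (-1.27 beside -1.09). The other cluster of Atp6v0e1, a subunit of the vacuolar proton pump, went the opposite way, at 0.55 beside -1.27. Sequence shared with related genes was not examined.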
